A study of Homo sapiens with 12 samples.

Results

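The 10 genes described here, *GFAP*, *VIM*, *NES*, *SOX2*, *SOX9*, *EGFR*, *PDGFRA*, *CD44*, *OLIG2* and *CHI3L1*, are widely used to describe the identity and lineage of glioma cells. They were chosen by name from the 45416 genes of the deposited table, with earlier results of these data known, and the choice applied no threshold to a measured value. The RNA came from U251, a human cell line derived from a glioblastoma, the most aggressive primary brain tumor. Per the labels the cells were wild type, and every group had been transfected, either with a control siRNA (siNC) or with 1 of 2 siRNAs against PD-L1 (siPDL1-1 and siPDL1-2), the immune checkpoint ligand encoded by *CD274*. At 48 h after transfection the cells were left unstimulated or were stimulated with 100 U/ml IFNγ for 24 h, which gave 6 groups of 2 libraries each, 12 libraries in all. All groups come from a single cell line, and the comparisons asked how much the marker genes changed with the cytokine, with each siRNA, and with both together.

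*GFAP*, vimentin (*VIM*) and nestin (*NES*) are intermediate filament proteins, typical of astrocytes, of mesenchymal and immature glial cells, and of neural progenitors, respectively. *SOX2*, *SOX9* and *OLIG2* are transcription factors of neural stem cells, of the glial lineage and of the oligodendrocyte lineage. *EGFR* and *PDGFRA* are receptor tyrosine kinases whose genes are often amplified in glioblastoma, and *PDGFRA* also marks oligodendrocyte progenitors. *CD44*, the receptor for hyaluronan, and *CHI3L1*, a secreted glycoprotein related to the chitinases and also called YKL-40, are high in glioblastomas with a mesenchymal profile. IFNγ signals through JAK kinases, and many of its target genes carry GAS or ISRE elements in their promoters.

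The sequences just before the transcription start are shown for the 3 genes that passed both thresholds used below in at least 1 comparison and have a RefSeq promoter entry. They are 250 bases long, 5′ to 3′ on the strand of the gene, on GRCh38.p14. The capitals mark a CCAAT box on either strand or a TATAAA box, both searched after the values had been seen. *SOX2* lies on the plus strand (chr3:181711675-181711924), *PDGFRA* is shown at its first listed start on the plus strand (chr4:54229043-54229292), and *CHI3L1* lies on the minus strand (chr1:203186705-203186954).
SOX2: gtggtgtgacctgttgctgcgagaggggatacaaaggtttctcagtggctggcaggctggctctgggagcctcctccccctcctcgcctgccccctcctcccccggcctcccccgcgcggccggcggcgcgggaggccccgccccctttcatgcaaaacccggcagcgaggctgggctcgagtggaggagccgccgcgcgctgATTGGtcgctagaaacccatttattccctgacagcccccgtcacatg
PDGFRA: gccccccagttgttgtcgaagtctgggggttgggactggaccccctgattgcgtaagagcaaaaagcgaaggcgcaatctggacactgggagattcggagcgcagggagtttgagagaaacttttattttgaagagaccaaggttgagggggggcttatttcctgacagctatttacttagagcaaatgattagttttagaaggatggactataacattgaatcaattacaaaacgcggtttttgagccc
CHI3L1: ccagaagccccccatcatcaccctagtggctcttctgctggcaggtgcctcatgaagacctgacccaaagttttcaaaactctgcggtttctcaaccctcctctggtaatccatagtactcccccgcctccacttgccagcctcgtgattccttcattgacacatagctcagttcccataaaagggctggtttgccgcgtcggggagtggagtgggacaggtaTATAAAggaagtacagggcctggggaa
The *SOX2* window held 1 CCAAT box (ATTGG on this strand) beginning 47 bases before the start, the *CHI3L1* window held 1 TATAAA box beginning 27 bases before the start, and the *PDGFRA* window shown held neither. The window before the second listed start of *PDGFRA* (chr4:54233710-54233959, not shown) held 1 CCAAT box, beginning 74 bases before that start. Of 35116 RefSeq promoters, searched on both strands from 250 bases before to 50 bases after the start, 34.6% held CCAAT and 11.5% held TATAAA. Neither the GAS motif (TTCNNNGAA) nor the ISRE core (GAAANNGAA) was found in the promoter window of any of the 7 members with an entry, *VIM*, *NES*, *SOX2*, *EGFR*, *PDGFRA*, *CD44* and *CHI3L1*, where 7.66% and 8.11% of all promoters held them. This says only that these letters were not in these windows. *GFAP*, *SOX9* and *OLIG2* are named only.

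The libraries held between 17101069 and 55657393 reads assigned to genes, so 1 read corresponded to between 0.0187 and 0.0586 CPM, the unit of the normalized read counts. *CD274* was measured at 4.60 and 4.91 CPM in unstimulated siNC cells, at 2.67 and 2.73 CPM with siPDL1-1 and at 3.57 and 3.45 CPM with siPDL1-2. After IFNγ it was 71.2 and 76.0 CPM with siNC, 60.9 and 66.7 CPM with siPDL1-1 and 37.5 and 35.0 CPM with siPDL1-2. The targeted transcript was therefore lower than in siNC in both libraries of each siRNA, but after IFNγ the difference with siPDL1-1 was 1.15-fold (adjusted p = 0.0498) and that with siPDL1-2 was 2.03-fold (adjusted p = 4.25e-07).

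By level, the cells were *VIM*-, *CD44*-, *SOX2*-, *SOX9*-, *NES*-, *PDGFRA*- and *EGFR*-expressing, with very little *GFAP* and *CHI3L1* and almost no *OLIG2*. Levels of different genes are compared here as CPM per kilobase of annotated exon, merged over all annotated transcripts of a gene. The median over the 12 libraries was 669 for *VIM*, 67.7 for *SOX2*, 48.8 for *CD44*, 29.7 for *SOX9*, 27.5 for *NES*, 12.7 for *PDGFRA*, 7.76 for *EGFR*, 0.842 for *CHI3L1*, 0.378 for *GFAP* and 0.0278 for *OLIG2*. *VIM* stood apart from all others, whereas neighbors in this order overlapped for *SOX2* (43.0 to 84.9 CPM per kilobase) and *CD44* (42.1 to 66.9), for *SOX9* (22.1 to 36.5) and *NES* (22.9 to 34.2), for *PDGFRA* (8.58 to 22.1) and *EGFR* (6.90 to 9.09), and for *CHI3L1* (0.497 to 1.07) and *GFAP* (0.171 to 0.646). The order depends on this merged length. By median CPM without it, *CD44* (488) stood above *SOX2* (170) and *GFAP* (4.25) above *CHI3L1* (2.83). The astrocyte filament gene *GFAP* was detected in every library, at 34 to 291 reads.

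**Figure D1:**
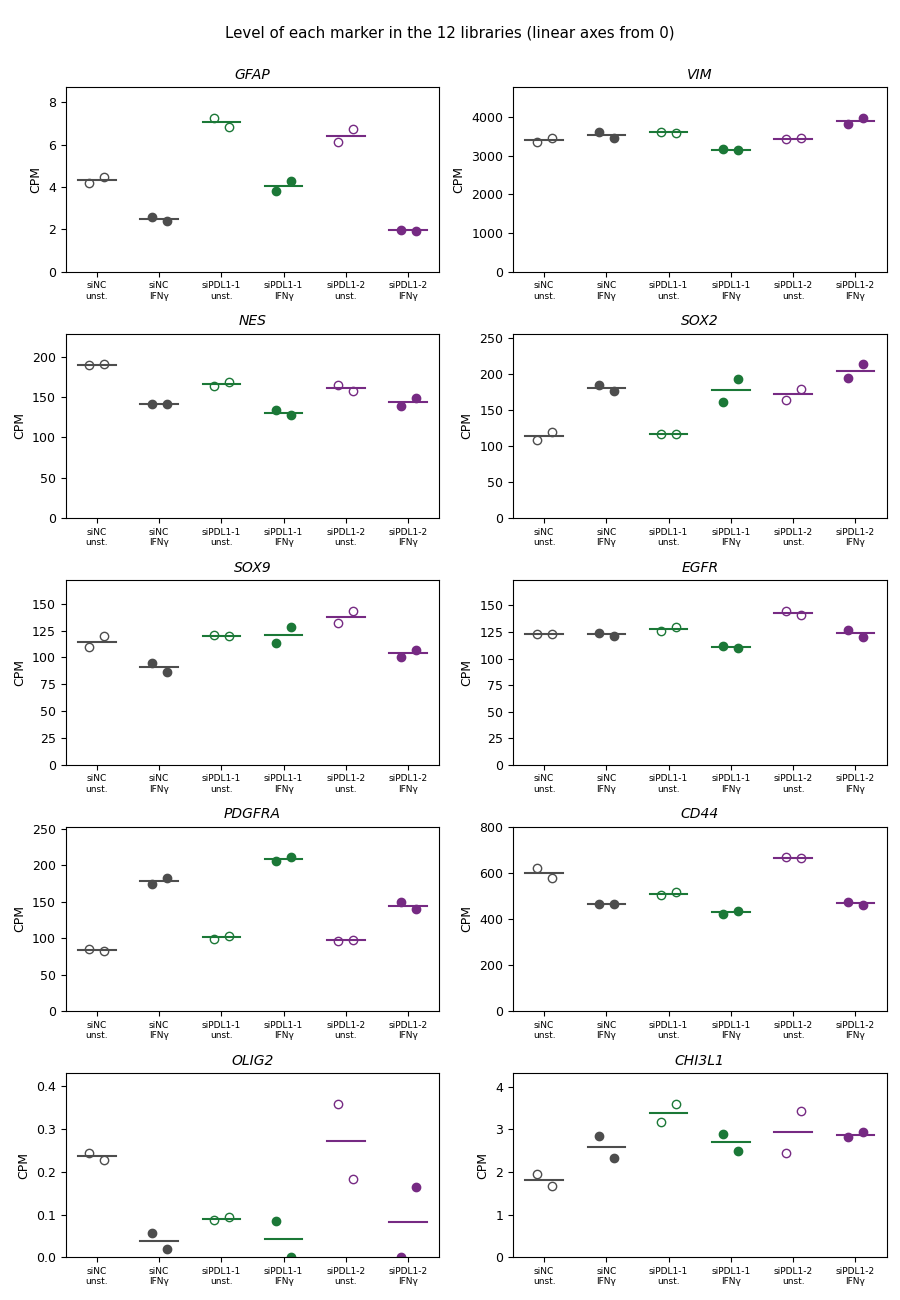
CPM (vertical axes, linear and from 0) of the 10 markers in each of the 12 libraries, by siRNA and stimulation (unst., unstimulated). Points are single libraries, open without and filled with IFNγ, and horizontal lines are the means of 2 libraries. PDGFRA is higher in all 6 stimulated libraries than in all 6 unstimulated ones, GFAP is highest in the 4 unstimulated libraries with siRNAs against PD-L1, and OLIG2 stays below 0.4 CPM.

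The markers differed widely in how much they varied. The highest library exceeded the lowest by 3.78-fold for *GFAP*, 2.58-fold for *PDGFRA*, 2.16-fold for *CHI3L1*, 1.97-fold for *SOX2*, 1.65-fold for *SOX9*, 1.59-fold for *CD44*, 1.49-fold for *NES*, 1.32-fold for *EGFR* and 1.26-fold for *VIM*. The plot of CPM by library shows that the replicates of a group lay close together for most genes. *OLIG2*, the oligodendrocyte lineage factor, had between 0 and 15 reads per library. It was at 0 in siPDL1-1 IFNγ library 2 and siPDL1-2 IFNγ library 1, where a count of 0 allows up to 0.141 and 0.176 CPM, so it did not pass the filter on low counts and was not tested. The other 9 members were tested among 17982 genes.

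Markers of T and NK cells and of microglia and macrophages were very low, and those of endothelial, epithelial and neuronal cells were higher. None of the 6 T and NK cell markers (*CD3D*, *CD3E*, *CD2*, *CD8A*, *NKG7* and *GNLY*) passed the filter, and their summed level was at most 0.253 CPM in a library. Of the 9 microglia and macrophage markers, 8 were below 1 CPM in every library, and their summed level ranged from 0.847 to 2.09 CPM. The summed level of the 5 endothelial markers ranged from 4.11 to 5.70 CPM in unstimulated libraries and from 2.03 to 3.39 CPM after IFNγ, mostly *VWF*, and that of the 5 epithelial markers from 6.58 to 10.1 CPM, mostly *CLDN4*. The summed level of the 5 neuronal markers was 17.2 to 20.7 CPM in unstimulated libraries and 23.6 to 29.9 CPM after IFNγ, with *GAD1*, a GABA-synthesizing enzyme, highest. All libraries came from a single cell line, U251, and bulk RNA does not show which of its cells carried these transcripts.

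To determine how IFNγ changed the markers, stimulated and unstimulated cells were compared within each siRNA. In the following, a gene rose or fell when its adjusted p (limma, Benjamini-Hochberg over all genes tested) was under 0.01, and it was called when, in addition, the fold change exceeded 1.5. Fold changes and their standard errors (SE) from the fit are on the scale of log2(CPM + 1), which understates the change of low genes such as *GFAP* and *CHI3L1*. In siNC cells, IFNγ raised *PDGFRA* and *SOX2* and lowered *GFAP*, *NES*, *CD44* and *SOX9*. Thus 6 of 9 members changed, compared with 27.3% of all genes tested, and 3 (*PDGFRA*, *SOX2* and *GFAP*) were called, compared with 8.12%. In siPDL1-1 cells, 7 of 9 changed (22.9% of all genes) and the same 3 were called (6.87%). In siPDL1-2 cells, 6 of 9 changed (17.1% of all genes) and only *GFAP* was called (5.27%).

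**Figure D2:**
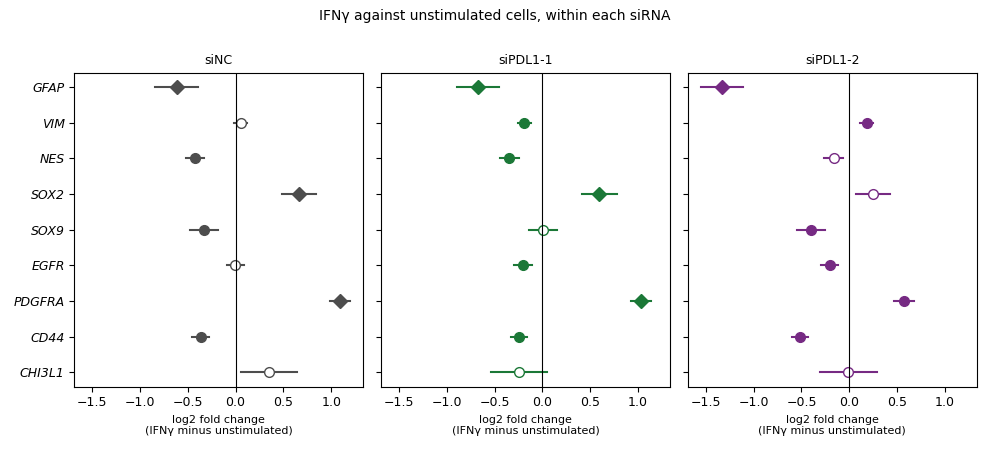
Log2 fold change with IFNγ (horizontal axis, IFNγ minus unstimulated) of the 9 markers tested, in siNC, siPDL1-1 and siPDL1-2 cells. Lines are 95% confidence intervals, filled symbols passed an adjusted p of 0.01 and diamonds also a fold change of 1.5. PDGFRA lies to the right and GFAP and CD44 to the left in all 3 panels, with GFAP at -1.33 in siPDL1-2 cells.

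*PDGFRA*, the receptor for PDGF-A chains, showed the largest rise. In siNC cells it was at 84.5 and 81.9 CPM without IFNγ and at 174 and 183 CPM with it, a 2.14-fold difference of means (log2 fold change 1.09, SE 0.048, adjusted p = 7.93e-11). With siPDL1-1 it went from 99.4 and 104 CPM to 205 and 211 CPM, and with siPDL1-2 from 95.9 and 98.0 CPM to 150.0 and 139 CPM. All 6 stimulated libraries lay above all 6 unstimulated libraries. The log2 fold change was 1.03 (SE 0.048, adjusted p = 1.34e-10) with siPDL1-1 and 0.57 (SE 0.048, adjusted p = 2.76e-07) with siPDL1-2, where the 1.49-fold difference fell just short of the fold threshold and was past it without siPDL1-2 unstimulated library 2 (0.59) or IFNγ library 2 (0.62).

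*SOX2*, a factor of neural stem cells, rose with siNC and siPDL1-1. It was at 108 and 119 CPM in unstimulated siNC cells and at 185 and 176 CPM after IFNγ, a 1.59-fold difference (log2 fold change 0.66, SE 0.082, adjusted p = 5.02e-05). With siPDL1-1 it was at 117 and 116 CPM before and at 161 and 194 CPM after IFNγ (0.60, SE 0.082, adjusted p = 1.40e-04). The stimulated siPDL1-1 libraries were further apart than those of the other groups, and without IFNγ library 2 the log2 fold change was 0.46, below the fold threshold. With siPDL1-2, unstimulated cells were already at 164 and 179 CPM and stimulated cells were at 195 and 213 CPM, a log2 fold change of 0.25 that did not pass the test (95% confidence interval 0.07 to 0.43, adjusted p = 0.0416).

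*GFAP* fell with every siRNA. It was at 4.21 and 4.48 CPM in unstimulated siNC cells and at 2.58 and 2.39 CPM after IFNγ, 1.75-fold lower (log2 fold change -0.62, SE 0.104, adjusted p = 2.38e-04). With siPDL1-1 it was at 7.25 and 6.85 CPM before and at 3.80 and 4.28 CPM after IFNγ, 1.74-fold lower. With siPDL1-2 it was at 6.13 and 6.71 CPM before and at 1.99 and 1.92 CPM after IFNγ, 3.29-fold lower (log2 fold change -1.33, SE 0.104, adjusted p = 1.28e-07). The stimulated libraries lay below the unstimulated ones within each siRNA, and those of siPDL1-2 were the lowest of all, at only 34 and 58 reads. In siNC cells the call was lost without unstimulated library 2 or IFNγ library 2 (log2 fold change -0.58 in both), where the fold change was just under the threshold and the adjusted p was 0.00383 and 0.00475.

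The other filament genes did not move as *GFAP* did. *NES* was at 189.7 and 190.3 CPM in unstimulated siNC cells and at 142 and 141 CPM after IFNγ (log2 fold change -0.42, adjusted p = 3.15e-06), and it fell from 164 and 168 CPM to 134 and 127 CPM with siPDL1-1 (-0.35, adjusted p = 2.72e-05). With siPDL1-2 it was at 165 and 158 CPM before and at 139 and 149 CPM after IFNγ (-0.16, adjusted p = 0.0137), which did not pass the test. *VIM*, the most abundant member at 3139 to 3968 CPM, differed by 0.05 (log2, 95% confidence interval -0.02 to 0.12) in siNC cells, fell by 0.19 with siPDL1-1 (adjusted p = 2.37e-04) and rose by 0.18 with siPDL1-2 (adjusted p = 5.30e-04). Its means in the 6 groups ranged from 3150.0 to 3894 CPM, so both changes were small, and the rise with siPDL1-2 lost the adjusted p threshold without unstimulated library 1 (0.0124).

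*CD44* fell with all 3 siRNAs. It went from 623 and 580.2 CPM to 465 and 466 CPM with siNC (log2 fold change -0.37, adjusted p = 3.13e-06), from 503 and 516 CPM to 421 and 437 CPM with siPDL1-1 (-0.25, adjusted p = 1.67e-04) and from 669 and 665 CPM to 473 and 463 CPM with siPDL1-2 (-0.51, adjusted p = 1.06e-07). The stimulated libraries lay between 421 and 473 CPM with all siRNAs, below every unstimulated library, and none of the 3 differences reached 1.5-fold. *SOX9* fell from 109 and 119.7 CPM to 95.2 and 86.8 CPM with siNC (-0.33, adjusted p = 0.00146) and from 132 and 143 CPM to 101 and 107 CPM with siPDL1-2 (-0.40, adjusted p = 5.22e-04). The fall with siNC lost the adjusted p threshold without unstimulated library 2 (adjusted p = 0.0263) or IFNγ library 2 (0.0214), and that with siPDL1-2 without unstimulated library 2 (0.0127) or IFNγ library 1 (0.01). With siPDL1-1 the *SOX9* libraries overlapped, at 121 and 120.0 CPM without and 114 and 129 CPM with IFNγ (0.01, adjusted p = 0.948).

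*EGFR* was at 123 CPM in both unstimulated siNC libraries and at 124 and 122 CPM after IFNγ, a difference of -0.0046 on the log2 scale with a 95% confidence interval of -0.09 to 0.09. It fell by 0.20 both with siPDL1-1, from 126 and 129 CPM to 112 and 110.0 CPM (adjusted p = 0.00166), and with siPDL1-2, from 145 and 141 CPM to 127 and 121 CPM (adjusted p = 0.00226). The fall of *EGFR* lost the adjusted p threshold with siPDL1-1 without either unstimulated library (adjusted p = 0.0114 and 0.0298), and with siPDL1-2 without either unstimulated library (0.0363 and 0.0142) or IFNγ library 2 (0.0259). The fall with siPDL1-1 also lost it when only the siPDL1-1 libraries were fitted (0.0137). *EGFR* and *PDGFRA*, both receptor tyrosine kinases, thus differed in the direction of their change in the cells with siPDL1-1 and siPDL1-2. *CHI3L1* was at 1.96 and 1.67 CPM without and 2.85 and 2.32 CPM with IFNγ in siNC cells, and did not pass the test with any siRNA (adjusted p = 0.0587, 0.191 and 0.971 with siNC, siPDL1-1 and siPDL1-2).

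Next, each siRNA against PD-L1 was compared with siNC in unstimulated cells. *GFAP* and *PDGFRA* were higher and *NES* was lower with both siRNAs, whereas *CD44* was lower with siPDL1-1 and slightly higher with siPDL1-2. The higher *CD44* with siPDL1-2 (0.15) passed the adjusted p threshold in only 10 of 20 alternative settings. It did not pass with edgeR (adjusted p = 0.0335) or DESeq2 (0.0319). With siPDL1-1, 5 of 9 members changed (18.8% of all genes tested) and 2, *GFAP* and *CHI3L1*, were called (4.00%). With siPDL1-2, 7 of 9 changed (28.4% of all genes) and 1, *SOX2*, was called (6.17%). Both comparisons used the same 2 siNC libraries, so their values are not independent.

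**Figure D3:**
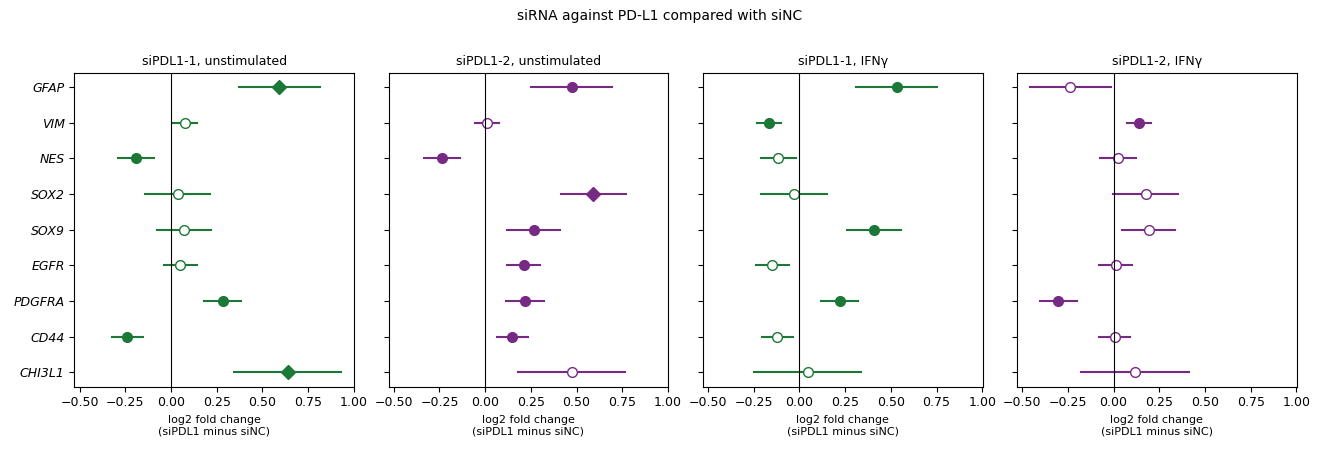
Log2 fold change of the 9 markers tested with each siRNA against PD-L1 compared with siNC (horizontal axis, siPDL1 minus siNC), in unstimulated cells (left pair) and after IFNγ (right pair). Lines are 95% confidence intervals, filled symbols passed an adjusted p of 0.01 and diamonds also a fold change of 1.5. The diamonds are GFAP and CHI3L1 with siPDL1-1 and SOX2 with siPDL1-2, all in unstimulated cells.

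*GFAP* was 1.62-fold higher with siPDL1-1 than with siNC (log2 fold change 0.59, SE 0.104, adjusted p = 5.30e-04) and 1.48-fold higher with siPDL1-2 (0.47, SE 0.104, adjusted p = 0.00198), and its 4 libraries with these siRNAs were the 4 highest of the 12. The call with siPDL1-1 was lost without siNC unstimulated library 1 (0.55, adjusted p = 0.00769) or siPDL1-1 unstimulated library 1 (0.55, adjusted p = 0.0112). *CHI3L1*, the mesenchymal marker, was at 3.16 and 3.60 CPM with siPDL1-1 and at 1.96 and 1.67 CPM with siNC, 1.86-fold higher (0.64, SE 0.137, adjusted p = 0.00257). These are 40 to 153 reads per library, and the call was lost without siNC unstimulated library 2, siPDL1-1 unstimulated library 1 or siPDL1-1 unstimulated library 2 (adjusted p = 0.0287, 0.0118 and 0.0374). DESeq2 did not call *CHI3L1* with siPDL1-1 (adjusted p = 0.0109). With siPDL1-2, *CHI3L1* was at 2.44 and 3.42 CPM and did not pass the test (0.47, adjusted p = 0.0125). The *GFAP* difference with siPDL1-2 did not pass with DESeq2 (adjusted p = 0.033).

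*SOX2* was 1.51-fold higher with siPDL1-2 than with siNC before stimulation (log2 fold change 0.59, SE 0.082, adjusted p = 1.34e-04), and with siPDL1-1 it was within the siNC range (0.04, 95% confidence interval -0.14 to 0.22). The fold change with siPDL1-2 stood just past the threshold. It fell below it without siNC unstimulated library 1 (0.52) or siPDL1-2 unstimulated library 2 (0.53), with adjusted p = 0.00182 and 0.00224. *PDGFRA* was 1.22-fold higher with siPDL1-1 (0.28, adjusted p = 3.76e-04) and 1.17-fold higher with siPDL1-2 (0.22, adjusted p = 0.00195), and *NES* was 1.14-fold and 1.18-fold lower (-0.19, adjusted p = 0.00479, and -0.24, adjusted p = 7.44e-04). *CD44* was 1.18-fold lower with siPDL1-1 (-0.24, adjusted p = 3.05e-04) and 1.11-fold higher with siPDL1-2 (0.15, adjusted p = 0.00688). *SOX9* and *EGFR* rose with siPDL1-2 by 0.26 (adjusted p = 0.00628) and 0.21 (adjusted p = 0.00101), and neither passed the test with siPDL1-1. Several of these smaller differences depended on 1 library. With siPDL1-1, the adjusted p threshold was lost for *NES* without any 1 of the 4 libraries compared (adjusted p = 0.0247 to 0.062), for *CD44* without siNC library 1 (0.0108) and for *PDGFRA* without siPDL1-1 library 2 (0.0111). With siPDL1-2, it was lost for *GFAP* and *SOX9* without siNC library 1 (0.0181 and 0.0791) or siPDL1-2 library 2 (0.0306 and 0.0831), for *EGFR* without siNC library 2 (0.0108) or siPDL1-2 library 1 (0.0187), and for *NES* without siPDL1-2 library 2 (0.0183). *PDGFRA* and *CD44* lost it without siNC library 2 (0.0264 and 0.12), siPDL1-2 library 1 (0.0121 and 0.0512) or siPDL1-2 library 2 (0.0267 and 0.0428). *SOX9* and *CD44* with siPDL1-2 also lost it when an unstimulated siPDL1-1 library, which only adds to the shared spread, was left out (0.0115 and 0.0132).

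After IFNγ, no member was called by limma with either siRNA, where 5.47% of all genes were called with siPDL1-1 and 3.13% with siPDL1-2. With siPDL1-1, 7 of 9 members had an unadjusted p under 0.05, and edgeR and DESeq2 each called 1, *GFAP* (1247 and 1069 of 17982 genes). With siPDL1-2, 4 of 9 had an unadjusted p under 0.05, and both tools called 0 (755 and 634 genes). An adjusted p under 0.05 was reached by 6330 genes with siPDL1-1 and by 5510 with siPDL1-2. At least as many therefore had an unadjusted p under 0.05, a share that was not computed. With siPDL1-1, 4 of 9 members changed (23.8% of all genes). *SOX9* was 1.33-fold higher, at 114 and 129 CPM compared with 95.2 and 86.8 CPM in siNC cells (log2 fold change 0.41, SE 0.068, adjusted p = 3.07e-04), and *PDGFRA* was 1.17-fold higher (0.22, adjusted p = 0.00203). *GFAP* was 1.63-fold higher by the ratio of means (0.53, SE 0.104, adjusted p = 9.58e-04), a difference that passed the fold threshold without siPDL1-1 IFNγ library 1 (0.60). *VIM* was lower, at 3161 and 3139 CPM compared with 3603 and 3463 CPM (-0.17, adjusted p = 7.99e-04). When only the stimulated libraries were fitted, the adjusted p was 0.022 for *VIM* and 0.0186 for *PDGFRA*, neither of which passes. The adjusted p threshold was lost without siNC IFNγ library 1 for *PDGFRA* (0.0266) and *VIM* (0.0109), and without siNC IFNγ library 2 for *GFAP* (0.0151).

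With siPDL1-2, 2 of 9 members changed after IFNγ (18.4% of all genes). *PDGFRA* was 1.23-fold lower than in stimulated siNC cells (-0.30, SE 0.048, adjusted p = 2.77e-04), the opposite direction to unstimulated cells, and *VIM* was 1.10-fold higher, at 3819 and 3968 CPM (0.14, adjusted p = 0.00359, and 0.0506 and 0.0331 without IFNγ library 2 of siNC or of siPDL1-2). The *VIM* difference did not pass when only the stimulated libraries were fitted (adjusted p = 0.0524). *GFAP* was lower by 0.24 and did not pass the test (95% confidence interval -0.46 to -0.02, adjusted p = 0.0984). For *SOX2* the difference was 0.18 (adjusted p = 0.129), and *CD44* and *EGFR* differed by 0.01 each, with adjusted p = 0.932 and 0.857.

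The 2 siRNAs against PD-L1 were also compared directly. In unstimulated cells, no member was called by limma (4.35% of all genes) and 3 of 9 differed (24.1%). EdgeR and DESeq2 also called 0 members (1054 and 890 of 17982 genes). An unadjusted p under 0.05 was found for 5 of 9 members. The same share over all genes was not computed, but 6603 genes had even an adjusted p under 0.05. *SOX2* was lower with siPDL1-1 than with siPDL1-2 (log2 fold change -0.55, SE 0.082, adjusted p = 2.98e-04), as were *CD44* (-0.39, SE 0.039, adjusted p = 5.06e-06) and *EGFR* (-0.16, SE 0.042, adjusted p = 0.00805). *SOX2* was called when siPDL1-2 unstimulated library 1 was left out (-0.62), and *EGFR* passed the adjusted p threshold in 8 of 20 alternative settings, with adjusted p = 0.0316 to 0.0845 without 1 of the 4 libraries compared. After IFNγ, *GFAP* was called (2.23% of all genes), 2.07-fold higher with siPDL1-1 (0.77, SE 0.104, adjusted p = 9.53e-05). *PDGFRA* was higher (0.52, SE 0.048, adjusted p = 1.85e-06) and *VIM* lower (-0.31, SE 0.031, adjusted p = 6.57e-06) with siPDL1-1, so that 3 of 9 members differed (10.5% of all genes).

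Whether the response to IFNγ itself differed from that of siNC cells was tested with an interaction term. With siPDL1-1, no member was called by limma (0.968% of all genes), edgeR or DESeq2 (163 and 162 of 17982 genes). An unadjusted p under 0.05 was found for 5 of 9 members. The same share over all genes was not computed, and 572 genes had an adjusted p under 0.05. The adjusted p threshold was passed by 1 of 9 (1.63% of all genes), *VIM*, whose change with IFNγ was lower by 0.24 than in siNC cells (SE 0.044, adjusted p = 0.00523). With siPDL1-2, 3 of 9 passed (17.1% of all genes) and 1, *GFAP*, was called (7.62%). Its fall with IFNγ was greater than in siNC cells (difference in log2 fold change -0.71, SE 0.147, adjusted p = 0.0023). The rise of *PDGFRA* was smaller than in siNC cells (-0.52, SE 0.067, adjusted p = 1.06e-04), and the fall of *NES* was smaller (0.26, SE 0.064, adjusted p = 0.00721). The rise of *SOX2* differed by -0.42, which did not pass the test (95% confidence interval -0.67 to -0.16, adjusted p = 0.0183). The *PDGFRA* interaction passed in 19 of 19 alternative settings, *GFAP* in 17, *VIM* in 9 and *NES* in 8. Without siPDL1-2 unstimulated library 2, the adjusted p of *GFAP* was 0.0162. The adjusted p of *VIM* was at most 0.0512 and that of *NES* at most 0.0463 in the settings that lost the threshold.

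Because reads had been counted on both strands, genes that overlap a member were examined as well. *GFAP* (chr17:44903159-44916937, minus strand, GRCh38) shares 1958 bases of annotated exon with *FAM187A* and 2232 with *CCDC103* on the opposite strand, and *FAM187A* had a mean level of 189% of that of *GFAP*. Reads from *GFAP* and these genes cannot be told apart in the shared bases. *FAM187A* was at 7.30 and 6.98 CPM in unstimulated siNC cells and at 6.48 and 5.60 CPM after IFNγ, and did not pass the test for IFNγ with any siRNA (log2 fold change -0.21, 0.06 and -0.21 with siNC, siPDL1-1 and siPDL1-2). It was higher than in siNC cells with siPDL1-2 before stimulation (0.50, adjusted p = 0.00434) and, after IFNγ, with both siPDL1-1 (log2 fold change 0.47, adjusted p = 0.00708) and siPDL1-2 (0.50, adjusted p = 0.00594). Its part in the *GFAP* differences was not tested. *CCDC103*, at a mean of 1.45 CPM, did not pass the test in any comparison.

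**Figure D4:**
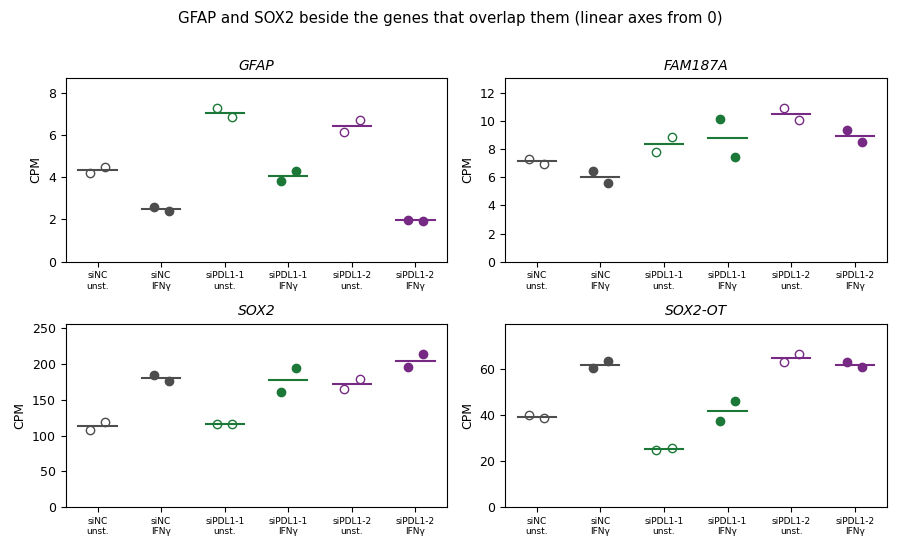
CPM (vertical axes, linear and from 0) of GFAP and the opposite-strand gene FAM187A, and of SOX2 and the surrounding gene SOX2-OT, in the 12 libraries. Points are libraries, open without and filled with IFNγ, and lines are means of 2 libraries. FAM187A is higher in the siPDL1-2 than in the siNC libraries, and SOX2-OT is lowest in the 2 unstimulated siPDL1-1 libraries.

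*SOX2* (chr3:181711925-181714436, plus strand) lies within *SOX2-OT*, a long noncoding gene on the same strand with which it shares no annotated exon base. *SOX2-OT* rose with IFNγ in siNC cells, from 40.0 and 38.8 CPM to 60.4 and 63.7 CPM (0.64, adjusted p = 1.02e-05), and in siPDL1-1 cells (0.69, adjusted p = 5.78e-06), and it was 0.70 higher with siPDL1-2 than with siNC before stimulation (adjusted p = 6.14e-06). With siPDL1-1 it was lower than with siNC before stimulation, at 24.9 and 26.0 CPM (-0.61, adjusted p = 3.05e-05), where *SOX2* differed by 0.04. The IFNγ response of *SOX2-OT* was smaller with siPDL1-2 than with siNC (-0.71, adjusted p = 3.18e-04). *SOX9-AS1*, on the strand opposite to *SOX9* and with no shared exon base, was higher than in siNC cells before stimulation, by 0.63 with siPDL1-1 (adjusted p = 9.53e-04) and by 0.69 with siPDL1-2 (adjusted p = 2.92e-04). *AC058822.1*, which shares 1533 exon bases with *PDGFRA* on the same strand, had a mean of 6.81 CPM, 5.03% of that of *PDGFRA*, and did not pass the test in any comparison. The genes overlapping *VIM*, *EGFR*, *CD44* and *OLIG2* had a mean of at most 3.36 CPM.

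The genes whose levels followed those of the called members most closely over the 12 libraries, among the 14277 genes that averaged 1 CPM or more, were *ARHGDIB* (r = 0.961) and *MYLK* (r = 0.960) for *GFAP*, *UGP2* (r = 0.969) and *ACSL4* (r = 0.966) for *SOX2*, *NT5E* (r = 0.993) for *PDGFRA*, and *MIA* (r = 0.895) and *IL2RB* (r = 0.881) for *CHI3L1*. *MYLK* is myosin light chain kinase, and *NT5E* is the ectoenzyme CD73. These are Pearson coefficients on log2(CPM + 1). The 12 points are 6 groups of 2 libraries that share siRNA and stimulation, so the coefficients are a description and carry no p-value. Among the members themselves, *PDGFRA* and *NES* ran opposite to each other (r = -0.948).

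Genes related to the members were described from lists chosen by function, by the number called. Over all genes tested, 8.12%, 6.87% and 5.27% were called with IFNγ in siNC, siPDL1-1 and siPDL1-2 cells. Before stimulation, 4.00% and 6.17% were called with siPDL1-1 and siPDL1-2 against siNC. The counts of every list are to be read beside these shares. Of 14 tested genes typical of astrocytes, IFNγ raised *GLUL*, glutamine synthetase, in siNC cells, from a mean of 432 to 806 CPM (0.90, adjusted p = 2.04e-11), and in siPDL1-2 cells (0.77, adjusted p = 1.57e-10). It lowered *MLC1* in siPDL1-1 cells (-0.63) and *NTRK2*, the receptor for BDNF, in siPDL1-2 cells (-0.89), and no other gene of the list was called with IFNγ. The medians of the list were 0.08, -0.14 and -0.22 with siNC, siPDL1-1 and siPDL1-2, beside medians of 0.0012, -0.016 and -0.015 over all genes tested. Before stimulation 3 genes of the list were called higher with siPDL1-2 than with siNC, *S100B* by 0.90 (adjusted p = 1.76e-05), and 1 with siPDL1-1. After IFNγ, *SLC1A3*, a glutamate transporter, was higher (0.68) and *GJA1*, connexin 43, was lower (-0.65) with siPDL1-1.

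Of 8 tested genes of the oligodendrocyte lineage, 1 was called with IFNγ, *PTPRZ1* in siPDL1-2 cells (-0.86, adjusted p = 3.18e-04), and 11 of the 15 genes listed were below 1 CPM in every library. *PTPRZ1* was also higher with siPDL1-2 than with siNC before stimulation (1.00, adjusted p = 5.22e-05), and *MYRF*, a regulator of myelin genes, was higher with siPDL1-1 than with siPDL1-2 (0.66, adjusted p = 3.21e-06). Of 6 tested neuronal progenitor genes, IFNγ lowered *HES6* in siNC cells (-0.96) and *SOX4* in siPDL1-2 cells (-0.72), 1 of 2 called there, and *CD24* was higher than in siNC cells with siPDL1-1 (0.62) and siPDL1-2 (0.86) before stimulation.

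Of 15 tested neural and glioma stem cell genes, 2 were called higher and 3 lower with IFNγ in siNC cells, 4 and 0 in siPDL1-1 cells, and 1 and 0 in siPDL1-2 cells. Over all genes tested, 8.12%, 6.87% and 5.27% were called in either direction in these cells. *ITGA6*, the laminin receptor subunit integrin α6, rose in all 3, by 1.23, 1.22 and 0.82 with siNC, siPDL1-1 and siPDL1-2, and *LIF* fell by 1.01 in siNC cells. *L1CAM*, a neural adhesion molecule, was higher with siPDL1-1 than with siNC before (0.97) and after IFNγ (0.99), and *BMI1*, a Polycomb protein, was higher with siPDL1-2 before stimulation (1.12, adjusted p = 3.07e-04). *ID1* was higher with siPDL1-2 after IFNγ (0.74). The median of the list over these comparisons lay between -0.05 and 0.23.

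All 32 mesenchymal glioma genes were tested. With IFNγ, 11 rose and 2 fell in siNC cells, 11 rose and 7 fell in siPDL1-1 cells, and 9 rose and 3 fell in siPDL1-2 cells, with medians of 0.07, 0.07 and 0.12. Those past the fold threshold as well were 2 up and 2 down, 2 up and 1 down, and 4 up and 2 down. Over all genes tested, in the same order, 27.3%, 22.9% and 17.1% changed and 8.12%, 6.87% and 5.27% were called. The medians over all genes were 0.0012, -0.016 and -0.015. *PLAUR*, the urokinase receptor, rose in siNC (1.05) and siPDL1-1 cells (1.13), *CEBPD* had the largest rise in siPDL1-2 cells (1.66, adjusted p = 9.50e-04), and *SNAI2*, a transcription factor of epithelial-mesenchymal transition, fell in all 3 (-0.98, -0.77 and -1.05). Against siNC before stimulation, 3 were called higher and 1 lower with siPDL1-1, and 0 and 2 with siPDL1-2 (4.00% and 6.17% of all genes). After IFNγ, the counts were 4 and 1 with siPDL1-1 and 0 and 1 with siPDL1-2 (5.47% and 3.13%). Between the siRNAs after IFNγ, 2 were called higher and 0 lower with siPDL1-1 (2.23%). By adjusted p alone, 11 were higher and 6 lower with unstimulated siPDL1-1 (18.8%), and 9 and 10 with siPDL1-2 (28.4%). *COL1A2* was higher with siPDL1-1 both before (0.94) and after IFNγ (1.00), *CAV1* was lower with siPDL1-2 after IFNγ (-0.69), and *THBS1* was higher with siPDL1-1 than with siPDL1-2 after IFNγ (0.79).

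Among 13 tested intermediate filament, lamin and plectin genes, no gene was called by limma with IFNγ in siNC cells (3 passed the adjusted p threshold alone), and 1, the neurofilament gene *NEFL*, was called in siPDL1-1 (0.61) and siPDL1-2 cells (0.83). *PRPH*, peripherin, was higher with siPDL1-1 than with siNC after IFNγ (1.02). Of 18 tested ligands, relatives and feedback regulators of *EGFR* and PDGFR, the *EGFR* ligand gene *BTC* rose with IFNγ, from means of 1.44 to 7.77 CPM in siNC cells (1.87, adjusted p = 1.61e-07), by 2.82 in siPDL1-1 cells and by 1.51 in siPDL1-2 cells. *PDGFB*, a ligand gene of the PDGF receptors, fell in siNC (-0.75) and siPDL1-1 cells (-1.01), and *PDGFD* fell in siPDL1-2 cells (-0.79). After IFNγ, *BTC* was higher with siPDL1-1 than with siNC (0.90), and *PDGFB* was higher with siPDL1-2 (0.86). In all, 4, 5 and 2 of the 18 were called with IFNγ in siNC, siPDL1-1 and siPDL1-2 cells, compared with 8.12%, 6.87% and 5.27% of all genes.

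Of 12 tested genes of hyaluronan metabolism and *CD44* partners, *HAS2*, a hyaluronan synthase, fell with IFNγ in siNC (-0.95), siPDL1-1 (-0.63) and siPDL1-2 cells (-1.16), and *HAS3*, another synthase, rose in siNC cells (0.80). Before stimulation 2 of the 12 were called higher with siPDL1-1 and 5 with siPDL1-2 than with siNC and none was called lower, with medians of 0.31 and 0.53 beside 0.02 and 0.03 over all genes. The shares of all genes called were 4.00% with siPDL1-1 and 6.17% with siPDL1-2. *RDX*, radixin, which links CD44 to actin, had the largest rise with both (0.92, adjusted p = 1.44e-07, and 1.23, adjusted p = 6.79e-09). Of 6 tested chitinase family and *CHI3L1* receptor genes, *CTBS*, chitobiase, rose with IFNγ in siNC (0.64) and siPDL1-1 cells (0.63), and *TMEM219* rose in siPDL1-2 cells (0.59). Among the markers of other cells, *VWF* fell with IFNγ with all 3 siRNAs (-0.97, -0.64 and -0.64) and *GAD1* rose in siNC (1.02) and siPDL1-2 cells (0.87).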

How the data were processed

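RNA-seq values of U251 cells in 6 groups of 2 libraries were used, with groups taken from the labels. Per the labels the libraries were made with a stranded mRNA kit, and per the methods quality trimming, mapping (GRCh38, Ensembl annotation), counting on both strands and normalization were all done by the authors in CLC Genomics Workbench. The deposited signal values are these normalized CPM. Dividing each library's values by the value of 1 read gave whole reads for 100% of them (tolerance 0.01 reads), which were used as counts. Limits for counts of 0 (3 reads) cover counting error only.

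Low genes were removed with filterByExpr, applied to these reads with a minimum count of 10 and a minimum total of 15. All 12 libraries were fitted as 6 groups with limma 3.58.1 in R 4.3.3 (trend and robust empirical Bayes) on log2(CPM + 1), and 11 comparisons were made with the thresholds of the study (FDR < 0.01, fold change > 1.5). Confidence intervals are 95%. The study calls the libraries biological replicates and reports 2 independent experiments. The p-values and confidence intervals of limma measure only the spread between libraries of a group. That spread was estimated jointly over the 6 groups of 2 libraries and moderated across genes. Alternatives were edgeR 4.0.16 and DESeq2 1.42.0 on the recovered reads, DESeq2's size factors, plain CPM, a pseudocount of 0.1, no filter, other thresholds, fits on fewer groups, the replicate number as a block and leaving out each library. The count without a fold threshold at FDR < 0.01 was added after seeing the data. The code was tested on simulated data.

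The members and the gene lists were chosen with earlier results of these data known. Named genes are the members, *CD274*, the genes overlapping a member, the called gene with the largest rise and the largest fall of each list in each comparison (mean of at least 1 CPM), and the 2 genes most correlated with each called member. The results for 2 genes that this rule names are not reported here. The lists hold astrocyte, oligodendrocyte lineage, neuronal progenitor, stem cell, mesenchymal, filament, receptor ligand, hyaluronan, chitinase and other-cell marker genes. Exon lengths and overlaps came from GENCODE on GRCh38, promoters from RefSeq on GRCh38.p14.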

Additional observations from a re-analysis of the deposited data

Results flagged for a closer look

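For 4 of the values, the change with IFNγ differed between an siRNA against PD-L1 and siNC by the test of the difference itself (limma's interaction term, adjusted p under 0.01). *VIM* changed by 0.05 in siNC cells and by -0.19 in siPDL1-1 cells, a difference of -0.24 (adjusted p = 0.00523, with means of 3408 and 3533 CPM in siNC cells and 3596 and 3150.0 CPM in siPDL1-1 cells before and after IFNγ). *GFAP* fell by 0.62 in siNC cells and by 1.33 in siPDL1-2 cells, a difference of -0.71 (adjusted p = 0.0023, with means of 4.34 and 2.49 CPM and of 6.42 and 1.96 CPM). *PDGFRA* rose by 1.09 in siNC cells and by 0.57 in siPDL1-2 cells, a difference of -0.52 (adjusted p = 1.06e-04, with means of 83.2 and 178 CPM and of 96.9 and 145 CPM). *NES* fell by 0.42 in siNC cells and changed by -0.16 in siPDL1-2 cells, a difference of 0.26 (adjusted p = 0.00721, with means of 190.0 and 142 CPM and of 161 and 144 CPM). For *GFAP* and *PDGFRA*, the siPDL1-2 level was higher than the siNC level before stimulation.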

How the results depend on the processing

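No direction was reversed: of 936 alternative values for 47 fold changes of members that had passed the adjusted p threshold, 910 kept their direction and their side of the call, 19 were no longer called and 7 became called. The counts of called members moved mostly with the thresholds. In the order IFNγ in siNC, siPDL1-1 and siPDL1-2, siPDL1-1 and siPDL1-2 against siNC unstimulated, both after IFNγ, siPDL1-1 against siPDL1-2 unstimulated and after IFNγ, and the IFNγ interaction of siPDL1-1 and siPDL1-2, they were 3, 3, 1, 2, 1, 0, 0, 0, 1, 0 and 1. At FDR < 0.05 with no fold threshold they were 6, 7, 8, 5, 8, 6, 3, 4, 7, 1 and 6. Of all 17982 genes, 6895, 6089, 5201, 5200, 7338, 6330, 5510, 6603, 3453, 572 and 5316 passed there. At FDR < 0.01 with no fold threshold the member counts were 6, 7, 6, 5, 7, 4, 2, 3, 3, 1 and 3. Of all genes, 4901, 4122, 3080, 3379, 5107, 4277, 3300, 4338, 1882, 293 and 3067 passed. For unstimulated siPDL1-1 the count of called members was 1 with DESeq2's size factors (*CHI3L1*) and with DESeq2's test (*GFAP*). For unstimulated siPDL1-2 it was 0 with DESeq2's size factors, DESeq2's test and edgeR, since *SOX2* fell just below 1.5-fold. For siPDL1-1 after IFNγ it was 1 with a pseudocount of 0.1, edgeR and DESeq2 (*GFAP*), and for the siPDL1-2 interaction 0 with DESeq2 (*GFAP*, adjusted p = 0.0252). With plain CPM the rise of *SOX2* with IFNγ was 0.57 in siNC and 0.52 in siPDL1-1 cells, below the fold threshold. Leaving out 1 library at a time, the counts ranged, in the same order, from 2 to 3, 2 to 3, 1 to 2, 0 to 2, 0 to 2, 0 to 1, 0 to 0, 0 to 1, 1 to 1, 0 to 0 and 0 to 1.

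Over all genes, limma called 1460 with IFNγ in siNC cells, edgeR 1746 and DESeq2 1531, and without a fold threshold the counts were 4901 at FDR < 0.01 and 6895 at FDR < 0.05. The counts without a fold threshold were over 1.5 times higher in every comparison (293 to 5107 at FDR < 0.01, compared with 174 to 1460). For the siPDL1-2 interaction, 1370 genes were called, and 888 without siPDL1-2 IFNγ library 2. Over 15 pairs of groups, the correlation of their replicate differences ranged from -0.132 to 0.193 and exceeded 0.1 in 2. Such low correlations show little shared shift between libraries of the same replicate number. They cannot decide whether those libraries came from the same experiment, since a small shared shift would leave them low. Without a fold threshold, 91 alternative values no longer passed FDR < 0.01, of which the block gave 4 (adjusted p = 0.0105 for *CD44* with unstimulated siPDL1-2, 0.0102 for *EGFR* between the siRNAs, 0.0114 for the *VIM* and 0.0113 for the *NES* interaction). With the replicate block, the counts of called members were unchanged, and 1467 genes were called with IFNγ in siNC cells. The median of all genes moved most, by -0.0626, with plain CPM for IFNγ in siNC cells. With 40 to 153 reads for *CHI3L1* and 0 to 15 for *OLIG2*, changes of these genes were not well resolved at this depth. *GFAP*, at 34 to 291 reads, shares this limit, most of all in the siPDL1-2 IFNγ libraries, which held 34 and 58 reads.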
